A study of Mus musculus with 13 samples.

Results

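The cytosolic ribosomal protein genes encode the protein parts of the ribosomes that translate nuclear mRNAs. They were chosen by symbol: the Rpl and Rps genes with a number, plus Rplp0, Rplp1, Rplp2 and Rpsa, without pseudogenes and S6 kinases, and with at least 10 counts in at least 2 libraries. Among 22997 symbols counted, 84 matched by name and 79 passed the count minimum, 47 of the large and 32 of the small subunit. The 5 left out were Rpl3l, Rpl10l, Rpl32l, Rpl39l and Rps4l, with 2 to 22 counts over all 13 libraries. In the comparisons of arms 78 of the 79 passed the filter on low counts; Rpl24, at 0 to 3.18 CPM (counts scaled by the library's TMM-adjusted total), did not.

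RNA came from 50000 sorted bone marrow cells per library, CD138+ B220- CD45.2+, from mice on a C57/BL6 background. WT was wild-type (3 libraries). V carried the Vκ*MYC transgene, which expresses MYC once somatic hypermutation has activated it, together with IgG1-Cre (3 libraries). VQ carried Vκ*MYC, IgG1-Cre and Nras LSL Q61R/+, a mutant Nras allele that Cre switches on; its libraries came from recipients of the transplanted lines D1 (2), D4 (1) and D5 (2). The tVk12653 libraries (2) came from recipients of a single transplantable myeloma line. Because the VQ and tVk12653 tumours were grown in recipient mice, unlike WT and V, their genotype cannot be told apart from transplantation. Recipients of a line share their tumour, so a VQ line counted as 1 replicate and the 2 tVk12653 libraries measure 1 line. For WT and V the labels do not say that libraries are separate mice, so p-values measure the spread between these libraries, which may be technical.

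Ribosomal proteins assemble on ribosomal RNA in the nucleolus and are needed in matched amounts. Their mRNAs mostly begin with a C followed by a run of pyrimidines, the terminal oligopyrimidine (TOP) tract, through which mTORC1 and LARP1 control their translation. MYC is known for raising the output of ribosome components, and plasma cells depend on heavy protein synthesis because they secrete antibody.

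RefSeq start site windows (GRCm38.p6, 250 bases before to 50 after the start) were held for 59 of the 79 genes. A C followed by at least 4 pyrimidines (C or T), beginning within 5 bases of the start on the gene's strand, was present in 28 of the 59 (47.5%) and in 21.2% of 27025 genes with a window. The windows below show the stretch from 40 bases before to 20 after the start, with the counted stretch, from its first C within those 5 bases, in capitals. Those shown are the 4 longest such stretches among genes called higher in VQ than in WT. Rps24, Rpl26 and Rpl36al follow, which rose less there than most ribosomal protein genes.
Rpl27a: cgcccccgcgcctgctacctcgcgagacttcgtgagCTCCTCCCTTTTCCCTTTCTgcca
Rpl15: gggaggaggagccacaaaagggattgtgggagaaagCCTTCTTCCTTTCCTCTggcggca
Rpl35: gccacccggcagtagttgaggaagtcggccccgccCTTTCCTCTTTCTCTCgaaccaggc
Rpl13a: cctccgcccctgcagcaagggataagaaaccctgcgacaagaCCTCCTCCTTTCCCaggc
Rps24: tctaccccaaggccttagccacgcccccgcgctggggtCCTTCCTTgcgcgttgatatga
Rpl26: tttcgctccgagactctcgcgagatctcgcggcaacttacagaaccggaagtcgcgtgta
Rpl36al: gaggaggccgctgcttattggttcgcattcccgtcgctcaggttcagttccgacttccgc

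These windows lie at chr7:109519155-109519214 (plus strand) for Rpl27a, chr14:18270967-18271026 (minus) for Rpl15, chr2:39005112-39005171 (minus) for Rpl35 and chr7:45128726-45128785 (minus) for Rpl13a. Those of Rps24, Rpl26 and Rpl36al lie at chr14:24490638-24490697 (plus), chr11:68901526-68901585 (plus) and chr12:69184048-69184107 (minus). The capital stretch is 20 bases long in Rpl27a, 17 in Rpl15, 16 in Rpl35, 14 in Rpl13a and 8 in Rps24; in Rpl35 and Rps24 further pyrimidines stand just before it and are not counted. Rpl26 and Rpl36al have none that begins within 5 bases of the start.

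The E-box CACGTG, the sequence that MYC with its partner MAX is known to bind, was searched in the 250 bases before the start and reads the same on both strands. It was present before 5 of the 59 genes (8.47%) and before 6.86% of all genes, and is shown in capitals in 30 bases of the gene's strand because V and VQ carry the Vκ*MYC transgene.
Rpl13a: cgctccgaaaccCACGTGacatcccgcccc
Rpl14: ccaagctcactgCACGTGtctgaggagaag
Rpl19: tacccagaggacCACGTGaccaaacgccct
Rpl34: cacctaacttctCACGTGacgttcctaccg
Rps19: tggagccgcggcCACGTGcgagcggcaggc

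These stretches lie at chr7:45128928-45128957 (Rpl13a, minus), chr9:120571337-120571366 (Rpl14, plus), chr11:98026679-98026708 (Rpl19, plus), chr3:130730536-130730565 (Rpl34, minus) and chr7:24884781-24884810 (Rps19, plus). The motif CCGGAA, searched on both strands, was present before 24 of the 59 (40.7%) and before 13.6% of all genes, and TATAAA before 3 (5.08%) and 14.3%. A match is a description of these letters, not of a bound site.

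Together the 79 genes held 0.780, 0.828 and 0.781% of all counts in the WT libraries and 1.09, 1.27 and 1.05% in V. Among transplanted libraries the share was 2.14 and 2.17% for D1, 2.85% for D4 and 2.26 and 2.21% for D5, while the tVk12653 libraries had 2.13 and 2.23%. Every V library stood above every WT library, and every transplanted library above every V library. Taken gene by gene, every transplanted library stood above every WT and V library in 51 of the 79, which held for 8.3% of all genes. The 4 transplanted lines averaged 2.35 ± 0.33% (SD, n = 4) and the WT and V libraries 0.966 ± 0.200% (SD, n = 6), a 2.44-fold ratio (exact two-sided permutation test, p = 0.00476, the smallest that 210 orderings allow). V averaged 1.13 ± 0.12% and WT 0.796 ± 0.027% (SD, n = 3 each), a 1.42-fold ratio (exact two-sided permutation test, p = 0.1, the smallest this design allows). The large subunit held 1.39 to 1.82 times the counts of the small subunit in every library.

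**Figure D1:**
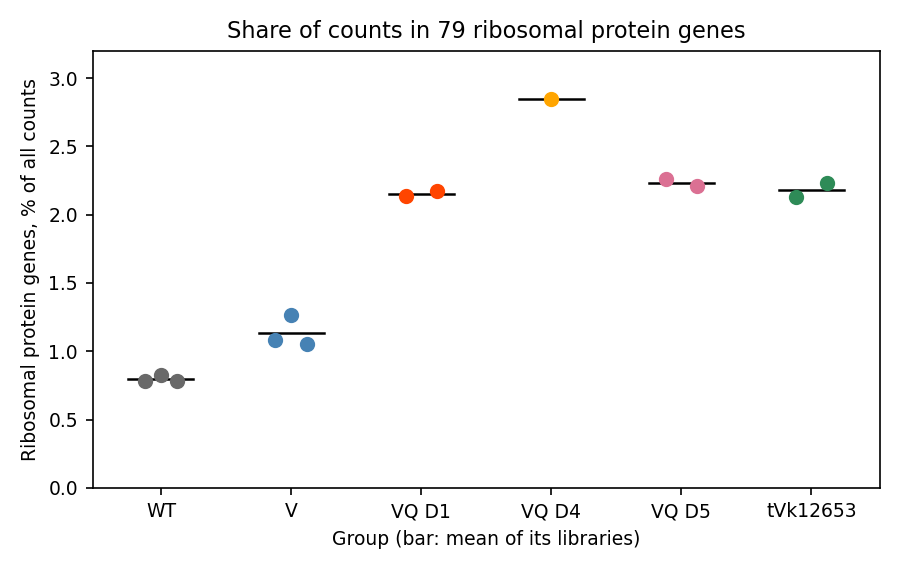
Percent of all counts held by the 79 ribosomal protein genes (y axis) in each library, by group (x axis); points are libraries and bars are group means. WT libraries lie between 0.780 and 0.828%, V between 1.05 and 1.27%, and the transplanted libraries between 2.13 and 2.85%.

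Total counts were 2096815 to 8512281 per library. Myc stood at 35.0 to 72.2 CPM in WT, 307 to 430.1 in V, 687 to 1665 in VQ, and 7999.8 and 8200.4 in tVk12653. Several summed marker levels moved with the same groups. Summed plasma cell markers (9 of 9 in the table) stood at 38586 to 71941 CPM in WT and V and at 5596 to 12386 in the transplanted libraries. Most of the WT and V sums was Jchain, the antibody joining chain, at 33543 to 64456, beside 44.5 to 6740 in the transplanted libraries. Slamf7 and Cd38 were also lower in the transplanted libraries, without overlap. For Sdc1, Xbp1, Prdm1, Irf4, Mzb1 and Tnfrsf17 the ranges overlapped. Tnfrsf17 overlapped only through D5 replicate 2, at 83.6 beside 82.9 for WT replicate 2. Mzb1 ranged from 275 to 565 across the WT and V libraries. Both D5 libraries lay within that range (384 and 334), whereas those of D1 were below it (155 and 127). Mzb1 was lower still for tVk12653 (6.70 and 7.24) and lowest for D4 (0.56). Irf4 stood at 941 to 1879 in WT and V and at 1511 to 2417 in the transplanted libraries. Neutrophil markers summed to 1871 to 9657 in WT and V and 78.8 to 1275 in the transplanted libraries, B cell markers to 578 to 906 and 72.8 to 215, and T and NK markers to 34.0 to 67.1 and 0 to 4.04. Monocyte markers summed to 478 to 1626 and 6.89 to 1545, and erythroid markers to 12.3 to 591 and 1.45 to 15.9. In D1, D4 and tVk12653 most of the monocyte sum was Ly6c2, at 501 to 1541. In every transplanted library most of the B cell sum was Cd79b, at 66.5 to 208. Sdc1, which encodes CD138, was at 365 CPM or more in every library. Ptprc, the gene of the sort marker CD45, was lower in every transplanted library than in any WT or V library. It ranged from 507 to 794 CPM across WT and V. The tVk12653 libraries held 196 and 183, beside 272 and 248 for D1. Lowest were D4 at 1.69 and the D5 libraries at 1.85 and 6.65. The reason for this difference in Ptprc was not tested. The part of other cells in the ribosomal protein results was not tested, and in bulk RNA fewer cells of a type and less RNA per cell cannot be told apart. Without the 20 most abundant genes in the denominator the ratio of transplanted lines to WT and V was 2.24, and without the 5 most abundant ribosomal protein genes it was 2.29.

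Levels differed widely between the genes. Per kilobase of transcript, Rpl8 was the most abundant at a mean of 2228 CPM per kb over the 13 libraries, followed in the large subunit by Rpl32 at 1433 and Rpl4 at 1317. In the small subunit Rps9 (844) and Rps15 (694) led, and Rpl24 was lowest at 1.75. These levels cannot be read as mRNA amounts alone, because processed copies of ribosomal protein genes are scattered over the genome and how reads with several alignments were counted is not given in the sources used here. Of the 79 genes, 41 had an exact copy at another gene for more than 50% of the 50-base windows of their transcript, and their median level was 66.7 CPM per kb, against 159 for the other 38. Across 78 genes the level was lower where more windows were copied (Spearman rho = -0.37, a description across genes of the same libraries). Rps3 had 2.96% of its windows copied and Rpl8 7.86%, whereas Rps27 had 98.6% and Rpl9 93.3%.

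In VQ against WT nearly all ribosomal protein genes were higher. Of 78 tested, 68 were called higher and 0 lower (edgeR quasi-likelihood test, Benjamini-Hochberg adjusted p under 0.05 over all 11933 genes), where 17.3% of all genes were called higher and 15.1% lower. The median change was 1.60 on the log2 scale, 3.03-fold, beside 0.08 for all genes tested. The 2 subunits had like medians, 1.59 over 46 large and 1.61 over 32 small subunit genes, with 41 and 27 called. In 68 of the 79 every VQ library stood above every WT library, which held for 16.8% of all genes. Leaving out any library or line gave 62 to 72 genes called higher.

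Rpl39, a small X-linked protein at the exit tunnel of the large subunit (GRCm38.p6 chromosome X, 37082518 to 37085222), had 3.87, 1.47 and 2.84 CPM in WT, with 13.2 and 28.7 for D1, 31.5 for D4 and 18.5 and 18.7 for D5. No VQ library overlapped WT, and the log2 fold change was 3.21 ± 0.45 (SE; adjusted p = 0.000974), the largest of the named genes. Rpl37 (chromosome 15, 5116613 to 5119140), also of the large subunit, stood at 3.52, 5.16 and 5.97 in WT, 16.4 and 34.4 for D1, 69.0 for D4, 20.4 and 18.7 for D5, a log2 fold change of 3.03 ± 0.47 (adjusted p = 0.00148). Rpl27 (chromosome 11, 101442245 to 101445596) stood at 6.34, 4.42 and 5.40 in WT and at 21.0 to 52.5 in VQ, with its highest values in D5 (log2 fold change 2.88 ± 0.36, adjusted p = 0.000544). These 3 had low WT levels and wide spread between lines. Rpl18 and Rps2 both rose by 2.26 (SE 0.21 and 0.23).

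The abundant genes rose by 1.06 (Rps9) to 1.91 (Rpl8). Rpl8, which lies near the peptidyl transferase centre (chromosome 15, 76904071 to 76906318), had 882, 838 and 877 CPM in WT, 2114 and 2312 for D1, 4657 for D4, 2458 and 2618 for D5, and rose by 1.91 ± 0.24 (adjusted p = 0.000626). D4 stood apart from the other lines for this gene. Rpl4 (chromosome 9, 64173387 to 64178562) stood at 895, 885 and 967 in WT and 2531 to 3693 in VQ and rose by 1.79 ± 0.17 (adjusted p = 0.000178). Rpl32 rose by 1.77 and Rps15 by 1.54.

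The stalk proteins Rplp0, Rplp1 and Rplp2, which recruit the translation factors, all rose. Rplp0 (chromosome 5, 115559467 to 115563729) stood at 334, 356 and 369 in WT, 626 and 707 for D1, 984 for D4, 1325 and 1337 for D5 (log2 fold change 1.56 ± 0.24, adjusted p = 0.00164). Rplp1 rose by 2.01 ± 0.26 and Rplp2 by 1.49 ± 0.18. The lines did not rank alike: D5 was highest for Rplp0, and D4 for Rplp1 (678, beside 293 to 369.7 in D1 and D5) and Rplp2 (1464, beside 945 to 1281).

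Rpl5 and Rpl11 bind the 5S ribosomal RNA and, when free, are known to inhibit MDM2, the antagonist of p53. Rpl11 rose by 1.52 ± 0.28 (adjusted p = 0.00362), from 11.97, 6.64 and 10.2 CPM in WT to between 19.99 and 34.7 in VQ. Rpl5 (chromosome 5, 107900508 to 107909005) did not pass the test: it stood at 17.3, 19.9 and 23.0 in WT, 21.8 and 20.6 for D1, 18.3 for D4, 76.6 and 75.7 for D5. D1 and D4 lay within the WT range and D5 well above it. The log2 fold change was 1.01 ± 0.51 (adjusted p = 0.157) and -0.03 without D5. Among other genes with known roles, Rps19 and Rps14, whose loss is known from anaemias, rose by 1.97 ± 0.20 and 1.51 ± 0.18, and Rpsa, also a laminin receptor, by 1.39 ± 0.20. Rps6, the substrate of the S6 kinases, and Rps27 did not pass, at 1.02 ± 0.37 (adjusted p = 0.0575) and 1.35 ± 0.49 (adjusted p = 0.0571).

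The 10 genes that did not pass were Rpl5, Rpl9, Rpl10, Rpl21, Rpl36al, Rps6, Rps10, Rps27, Rps28 and Rps29, listed after their values were seen. Rpl36al, an autosomal copy of the X-linked Rpl36a, stood at 49.3, 41.7 and 45.5 in WT and 50.1 to 66.0 in VQ (log2 fold change 0.41 ± 0.17, adjusted p = 0.0869), while Rpl36a stood at 9.86, 13.3 and 11.7 in WT and 31.0 to 56.7 in VQ and rose by 1.86 ± 0.26. Rps27l, the p53-responsive paralog of Rps27, rose by 1.53 ± 0.27. Of the X-linked genes Rps4x rose by 2.04 ± 0.19 and Rpl10 did not pass, at 0.69 ± 0.25 (adjusted p = 0.059). Sex-linked RNA also differed from WT in the VQ and tVk12653 libraries. Ddx3y stood at 47.9, 129 and 141 CPM in WT and at 0 to 0.43 in the transplanted libraries. Xist stood at 1481, 2.58 and 3.98 in WT and at 3.24 to 97.6 in the transplanted libraries. The part of this difference in the changes was not tested. Rpl26 (WT 229.9, 177 and 193, VQ 258 to 331), Rps24 (WT 281, 217 and 272, VQ 343 to 503) and Rps20 rose least among those called, by 0.62 ± 0.16, 0.70 ± 0.15 and 0.89 ± 0.15. The Rpl26 call was lost without WT replicate 2 or without WT replicate 3, and the Rpl26 and Rps24 calls in a fit of VQ and WT alone.

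**Figure D2:**
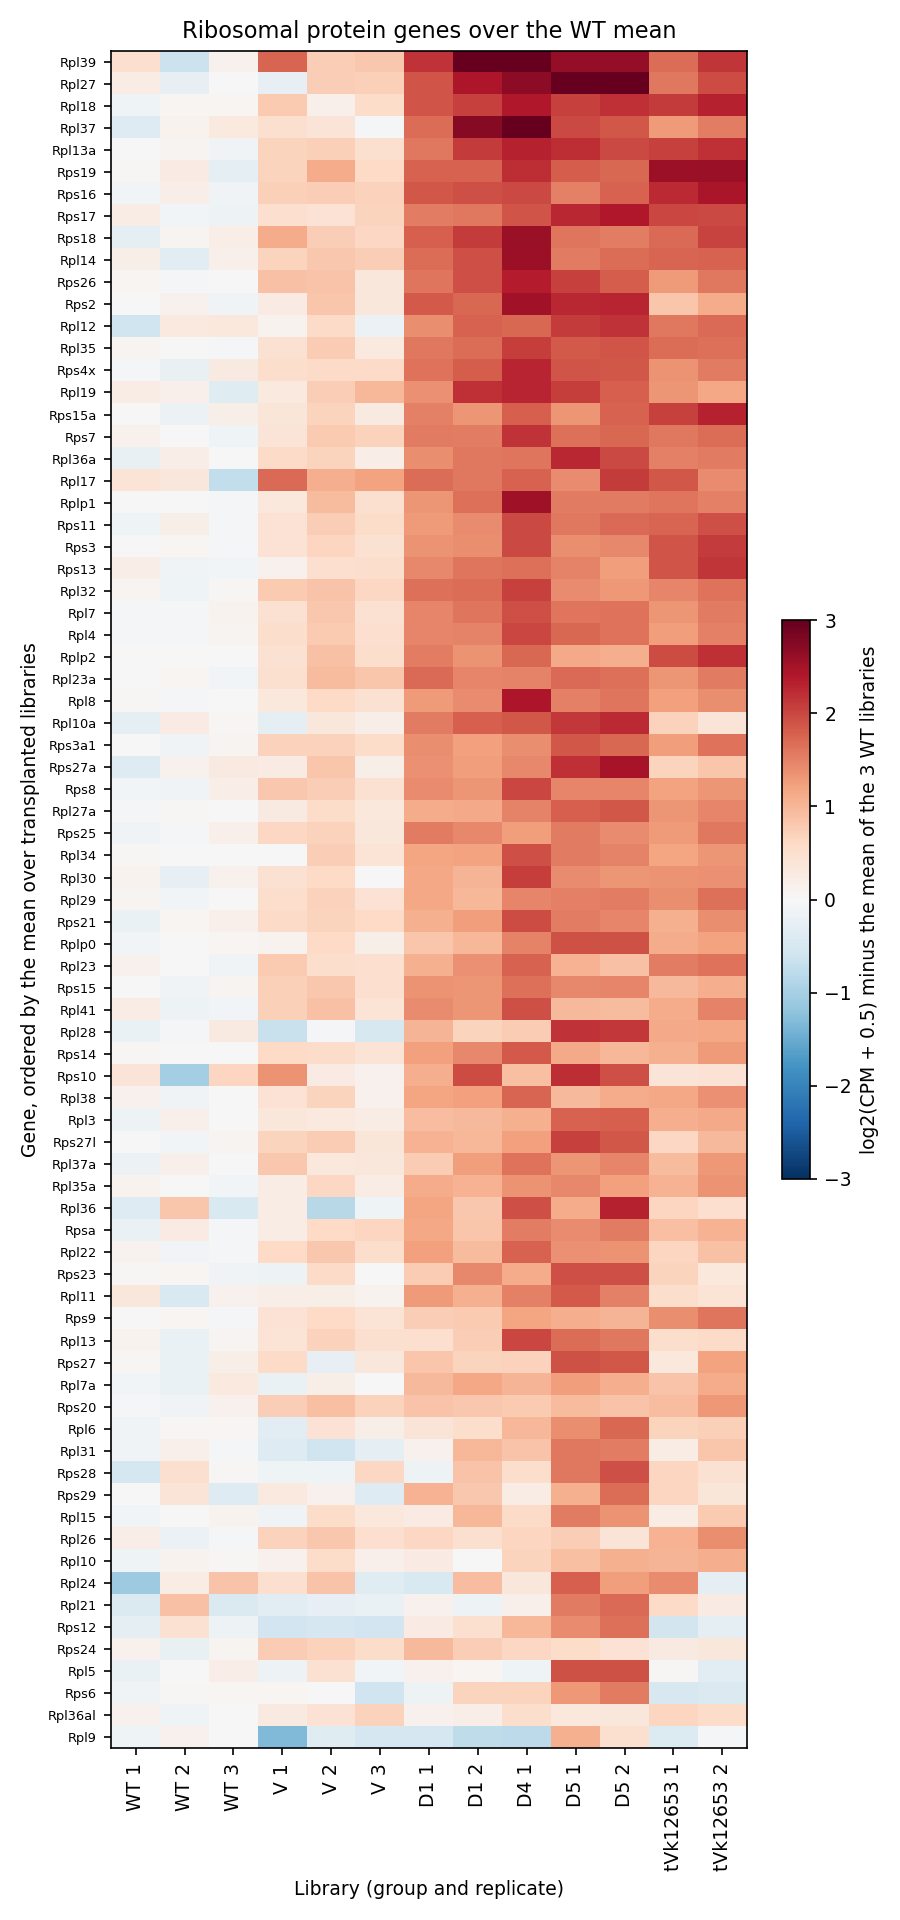
Ribosomal protein genes (77 of the 79, rows) in each of the 13 libraries (columns) as log2 of CPM plus 0.5, minus the mean of the 3 WT libraries; red is above and blue below WT, and colours stop at 3 in either direction. Transplanted libraries are red for most genes, V is pale red, and the bottom rows (Rpl9, Rpl36al, Rps6, Rpl5, Rps24) are pale or mixed.

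The genes were also compared as shares of their own summed counts, which asks which of them moved relative to the rest. In VQ against WT 14 of 78 changed share, 7 up and 7 down (all 14 are listed, some after their values were seen). In that fit 71.1% of all genes were called, 1.59% higher and 69.5% lower, which makes adjustment over all genes lenient for the members. Rpl39, Rpl37, Rpl27, Rpl18, Rps2, Rpl13a and Rps26 took more of the pool, from 1.60 for Rpl39 to 0.49 for Rps26 on the log2 scale. Rpl9, Rpl36al, Rpl26, Rpl10, Rps24, Rps20 and Rps9 took less, from -1.55 for Rpl9 to -0.55 for Rps9. Leaving out a library or line gave 10 to 20 genes.

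Promoter letters and gene structure were set beside the VQ and WT changes as a description. The median log2 change was 1.61 in the 28 genes with the pyrimidine run and 1.53 in the 30 tested without it. It was 2.10 in the 5 with CACGTG, of which 5 were called higher, and 1.53 in the 53 without, of which 45 were. Genes with a snoRNA gene inside had a median of 1.61 (30 genes) and those without one 1.58 (48). Genes with copies over 50% had 1.57 (40) and the others 1.62 (38), and across 78 genes the change had a Spearman rho of -0.09 with the copied share, 0.03 with transcript length and 0.08 with abundance.

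Lists of related genes were counted in VQ against WT in the same way, where 17.3% of all genes were higher and 15.1% lower and the median of all genes was 0.08. Of 20 tested other TOP mRNAs 18 were higher and 0 lower (median 1.44), among them Npm1 at 2.43 and Eef1b2 at 2.37. Of 25 listed chaperones, importins and ribosome assembly or recycling factors 15 were higher and 0 lower (median 0.94). Rrs1 at 1.99, Ipo5 at 1.97 and Rpf2 at 1.94 led them. Mitochondrial ribosomal protein genes had 41 higher and 0 lower of 77 (median 0.87). Of 16 genes of mTORC1 and LARP1 control 4 were higher and 1 lower (median 0.04), near the share of all genes, with Eif4ebp1 at 1.37, Larp4 at 1.02 and Eif4e at 0.87 the 3 largest. Rack1, a small subunit protein outside the symbol rule, rose by 1.92 ± 0.18, and the paralogs Rpl22l1 and Rpl7l1 did not pass (0.38 ± 0.45 and 1.08 ± 0.39).

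Most genes were also higher in VQ than in V, a comparison that shares libraries with the others. Of 78 genes 64 were called higher and 0 lower (edgeR, Benjamini-Hochberg), where 15.6% of all genes were higher and 12.4% lower, and the median change was 1.16 beside 0.08 for all genes. Rpl37 (2.75 ± 0.46), Rpl27 (2.37 ± 0.35), Rpl39 (1.99 ± 0.42), Rpl28 (1.90 ± 0.46) and Rpl10a (1.90 ± 0.24) led the named genes, and Rpl4 and Rps19 each rose by 1.16. For Rps24, Rpl26, Rpl36al and Rps20 the V and VQ libraries overlapped. For Rps24 V stood at 436, 415 and 372 and VQ at 343 to 503 (log2 fold change 0.02 ± 0.15, within 1.96 SE of -0.28 to 0.32), and its sign changed with the scaling. Rpl26 gave -0.05 ± 0.16, Rpl36al -0.09 ± 0.17 and Rps20 0.10 ± 0.15; none of these 3 passed. Leaving out any library or line gave 51 to 64 genes called higher.

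V against WT compares mice with the Vκ*MYC transgene and IgG1-Cre with wild-type mice, neither of them transplant recipients. Summed erythroid markers were 112, 591 and 169 CPM for WT but 12.3, 17.1 and 38.3 for V, and summed T and NK markers were 48.9, 67.1 and 57.7 for WT but 34.0, 36.6 and 39.6 for V, without overlap; their part in the changes was not tested. In the fit of all arms 0 of 78 genes were called in either direction (edgeR, Benjamini-Hochberg), as were 0% of all genes, although 44 of the 78, and 628 of all 11933 genes, had an unadjusted p under 0.05 and DESeq2 called 3 higher, where it called 0.0685% of all genes higher. The median change was 0.52 (1.44-fold) beside 0.01 for all genes, and 70 of 78 changes were above 0. In 52 of the 79 genes every V library stood above every WT library, which held for 8.5% of all genes, and in 3 (Rpl9, Rpl31 and Rps12, named for this) every WT library stood above every V library, which held for 9.54%.

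The count depended on how the spread was modelled. WT and V libraries with the same number deviated together over all genes, at correlations of 0.190, 0.158 and 0.125. A value of like size, 0.133, stood between WT replicate 2 and D1 replicate 1, which share no number. By the same-number values a fit of WT and V alone with the number as a block was made. This block fit called 29 of 75 higher and 0 lower, where 1.31% of all genes were higher and 3.24% lower (4.56% in all). The labels give no pairing of WT with V libraries. Because the block was chosen from these same counts, its calls and adjusted p-values depend on that choice and are not independent support. Without the block the same libraries gave 0 of 75, where 0.00951% of all genes were called in each direction (0.019% in all). Over the ribosomal protein genes alone the same-number correlations were 0.111, 0.0248 and -0.378, so these genes did not follow the pairing in every pair. The block in a fit of all libraries gave 17 higher, beside 0.335% of all genes, and 1 mean per group 8, beside 0.132%. Without pair 1, 2 or 3 the block gave 25, 7 and 16 genes, beside 1.97, 0.44 and 1.17% of all genes, the fewest without pair 2. As shares of the pool 0 genes changed in the fit of all arms, where 0.00838% of all genes were higher and 0.0251% lower (0.0335% in all).

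Rps19 (chromosome 7, 24884592 to 24889811) had levels of 107, 125 and 86.7 CPM in WT, against 169, 227 and 159 in V, with no overlap. Its log2 fold change was 0.81 ± 0.20 in the fit of all arms (adjusted p = 0.617) and 0.80 ± 0.12 with the block (adjusted p = 0.00312). Rps20 stood at 215, 206 and 239.7 in WT and 369, 408 and 354 in V, and gave 0.79 ± 0.15 (adjusted p = 0.559) and 0.78 ± 0.12 (adjusted p = 0.00428). Rpl32 stood at 345, 299 and 333 in WT and 563, 591 and 496 in V, and gave 0.77 ± 0.17 (adjusted p = 0.582) and 0.76 ± 0.12 (adjusted p = 0.00544). V replicate 2 was the highest V library for all 3. Of the stalk genes Rplp1 and Rplp2 passed with the block (0.59 and 0.63) and Rplp0 did not (0.30 ± 0.13, adjusted p = 0.231).

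Rps12 went the other way without passing either fit, at 10.2, 17.7 and 11.4 in WT and 8.38, 8.89 and 8.44 in V (-0.60 ± 0.36). Rpl5 and Rpl11 gave 0.10 ± 0.52 and 0.14 ± 0.29. The WT and V libraries differ in sex-linked RNA: Xist stood at 1481, 2.58 and 3.98 in WT and 2631, 1493 and 1881 in V, and Ddx3y at 47.9, 129 and 141 in WT and 0 in every V library. Its part in the changes was not tested; the X-linked Rpl39, Rps4x, Rpl36a and Rpl10 gave 1.22 ± 0.46, 0.56 ± 0.19, 0.50 ± 0.26 and 0.30 ± 0.25, and none passed either fit.

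**Figure D3:**
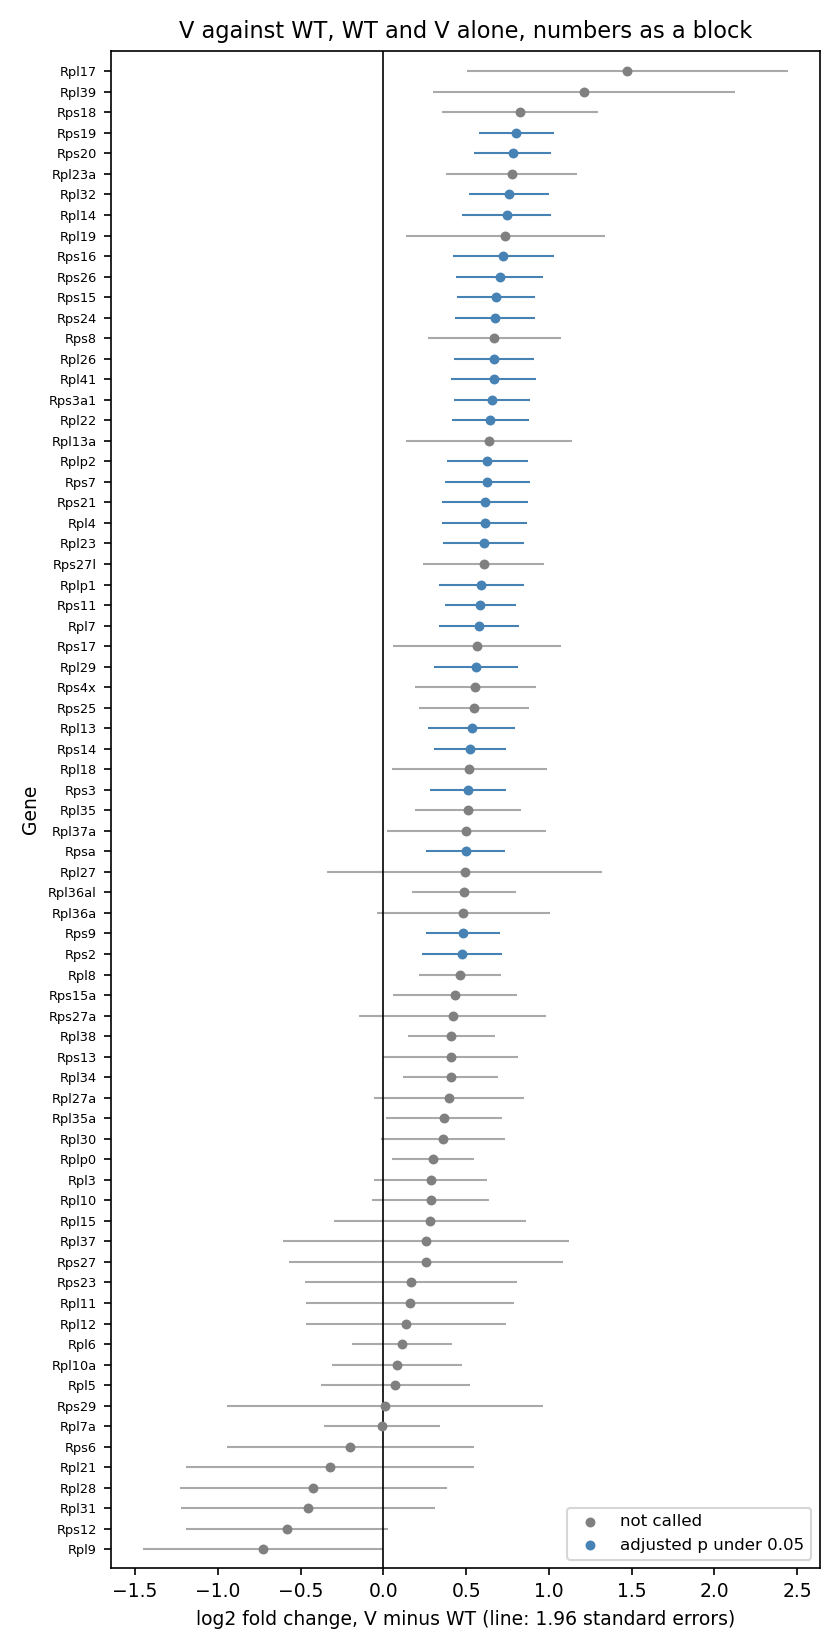
Log2 fold change of V minus WT (x axis) for 73 of the 75 ribosomal protein genes tested (y axis) in the fit of WT and V alone with the replicate number as a block; lines span 1.96 standard errors and blue marks adjusted p under 0.05. Of those drawn 27 pass, all above 0, whereas the fit of all arms and the same libraries without the block pass 0. The block was chosen from these same data and is not given by the labels.

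In tVk12653 against WT 55 of 78 genes were called higher and 0 lower (edgeR, Benjamini-Hochberg), where 12.6% of all genes were higher and 15.7% lower. The median change was 1.27 beside -0.05 for all genes. Every tVk12653 library stood above every WT library in 68 of the 79, which held for 31.2% of all genes. The 55 fell to 38 without tVk12653 replicate 2 and reached 59 without D5. Here tVk12653 and VQ share the WT libraries, so both sets of values are given side by side.

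Rps19 led the named genes, at 621 and 639 CPM in tVk12653, above the 349 to 491 of VQ and the 86.7 to 125 of WT, a log2 fold change of 2.56 ± 0.22 over WT (adjusted p = 0.000172) beside 1.97 in VQ. Rps16 stood at 183 and 213, above 111 to 152 in VQ and 35.5 to 43.9 in WT, and rose by 2.36 ± 0.17 beside 1.91. Rpl18 rose by 2.23 beside 2.26, Rps15a by 2.19 beside 1.65, and Rpl13a by 2.17 beside 2.23. Rplp2 rose by 2.07 ± 0.20 beside 1.49, while Rplp0 rose by 1.15 beside 1.56 and Rplp1 by 1.57 beside 2.01. Set directly against VQ neither of these 2 passed (0.41 ± 0.27, adjusted p = 0.342, and 0.44 ± 0.28, adjusted p = 0.326), and without either tVk12653 library the Rplp0 call was lost.

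Other genes lay near or below WT in tVk12653. Rps12 (chromosome 10, 23785183 to 23787383) stood at 8.55 and 10.5 beside 10.2, 17.7 and 11.4 in WT (-0.46 ± 0.40), and Rps6 at 5.32 and 5.43 beside 7.04, 7.74 and 7.96 (-0.50 ± 0.43). Neither passed. As shares of the pool 19 genes changed (8 up, led by Rps19 at 1.13, and 11 down, led by Rps6 at -1.93), where 67.4% of all genes were called, 2.46% higher and 64.9% lower. That count was 12 without WT replicate 3, 11 without tVk12653 replicate 1 and 6 without tVk12653 replicate 2.

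**Figure D4:**
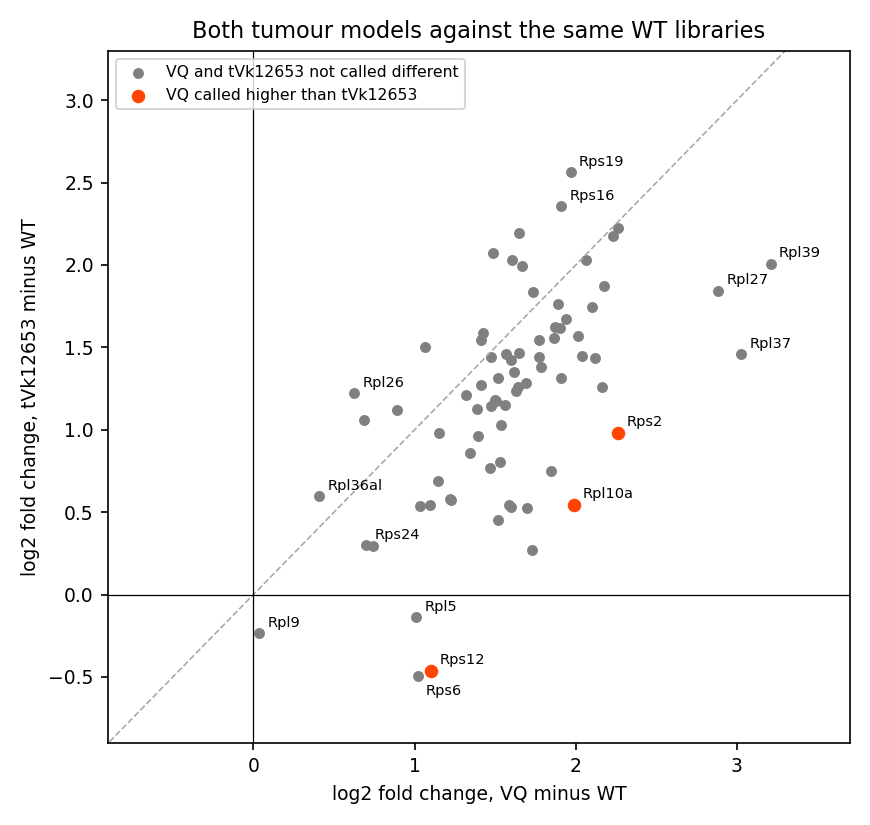
Log2 fold change over WT of 76 of the 78 ribosomal protein genes tested in VQ (x axis) and tVk12653 (y axis), with the line of equal change dashed; both axes use the same WT libraries. Orange marks 3 genes called higher in VQ than in tVk12653 (Rps12, Rpl10a and Rps2); Rpl39, Rpl37 and Rpl27 lie far right and Rps19 and Rps16 above the line.

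Set against each other, VQ and tVk12653 differed in 4 of 78 genes, all higher in VQ, where 5.97% of all genes were higher and 4.19% lower (edgeR, Benjamini-Hochberg), 10.2% in all. Among them were Rps12 (1.56 ± 0.41, adjusted p = 0.039), Rpl10a (1.45 ± 0.27, adjusted p = 0.0123) and Rps2 (1.28 ± 0.26, adjusted p = 0.0153; named after its value was seen). Rpl10a stood at 38.8 and 31.2 in tVk12653 and 70.8 to 113 in VQ, and Rps2 at 208 and 255 and 384 to 669, without overlap. Rps19 (-0.60 ± 0.22, adjusted p = 0.106), Rpl26 (-0.60 ± 0.17, adjusted p = 0.0558) and Rplp2 (-0.58 ± 0.20, adjusted p = 0.0851) had the lowest values among named genes and did not pass. Without tVk12653 replicate 1, or without tVk12653 replicate 2, 0 genes were called, and without D1 8 were.

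Within VQ, D1 was compared with D5 over recipients of each line. Of 79 genes 26 were lower in D1 and 0 higher (edgeR, Benjamini-Hochberg over 12835 genes), where 21.7% of all genes were lower and 20% higher (41.7% in all, beside 32.9% of the ribosomal protein genes). Summed markers of other cells moved with this contrast. Monocyte markers summed to 567 and 678 CPM in D1 and 6.89 and 34.2 in D5. Neutrophil markers summed to 1275 and 376 and to 91.9 and 142, and B cell markers to 179 and 172 and to 78.96 and 72.8. Most of the D1 monocyte sum was Ly6c2, at 501 and 644 beside 2.38 and 22.2 in D5. Lyz2 was also higher in D1, at 60.8 and 30.3 beside 3.44 and 9.20. Most of the B cell sums was Cd79b, at 178 and 170 in D1 and 71.8 and 66.5 in D5. Pax5 (1.35 and 2.06 in D1, 6.36 and 5.37 in D5) and Cd79a (0 in D1, 0.53 and 0.77 in D5) went the other way. The part of these markers in the result was not tested. The median change was -0.28 beside 0.05 for all genes. In 48 of 79 genes every D5 library stood above every D1 library, which held for 35.9% of all genes, and in 10 the reverse held, beside 38.8%. The 26 became 15 without D5 replicate 1 and 16 without D5 replicate 2.

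Rpl5 differed most, at 21.8 and 20.6 CPM in D1 and 76.6 and 75.7 in D5 (-1.84 ± 0.23, adjusted p = 2.31e-05). Rpl28 stood at 13.7 and 10.8 in D1 and 31.0 and 30.4 in D5 (-1.34 ± 0.29, adjusted p = 0.00196). Rplp0 fell by 1.00 ± 0.16, Rpl6 by 1.11 ± 0.19, Rps12 by 1.19 ± 0.28 and Rps27l by 0.95 ± 0.17. Rplp1 and Rplp2 did not pass (-0.06 ± 0.17 and 0.33 ± 0.16), and neither did Rpl8 (-0.20 ± 0.14) or Rpl4 (-0.20 ± 0.15). Rps6 (-1.13 ± 0.35) and Rps27 (-1.19 ± 0.38) passed, but the Rps6 call was lost without D1 replicate 1 or without D5 replicate 2, and the Rps27 call without any of the 4 libraries.

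The genes lower in D1 included many with copies elsewhere: 19 of the 41 with copies over 50% were called and 7 of the other 38, with medians of -0.49 and -0.20. Across 79 genes the change had a Spearman rho of -0.35 with the copied share, a description. The part of read assignment to copies was not tested. As shares of the pool 21 genes changed (5 up, 16 down), where 40% of all genes were called; Rpl41 (0.58), Rps24 (0.55), Rplp2 (0.50), Rpl32 (0.48) and Rps14 (0.45) took more in D1. That count was 11 without D1 replicate 1 or D1 replicate 2 and 8 without D5 replicate 2.

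**Figure D5:**
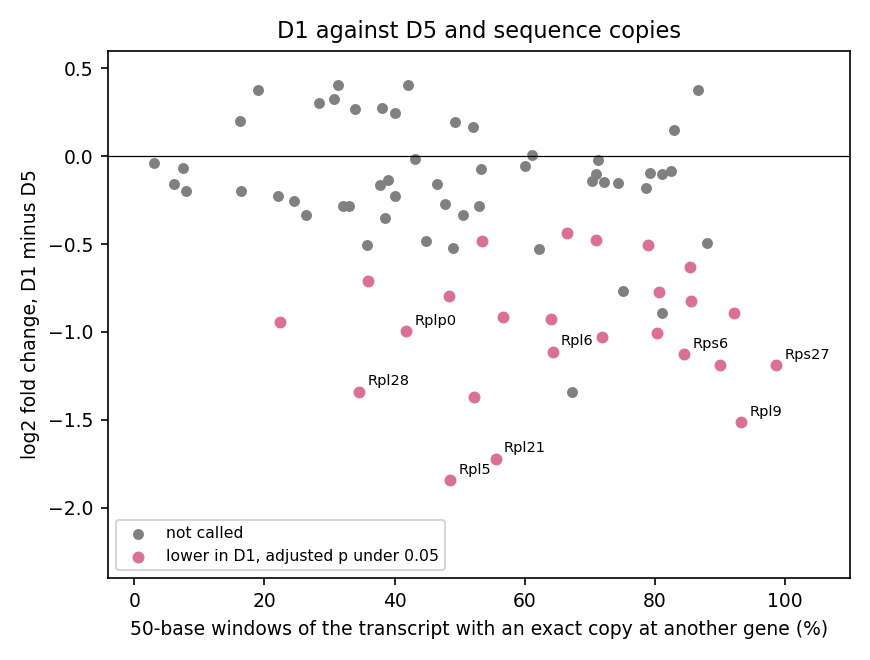
Log2 fold change of D1 minus D5 (y axis) for 77 of the 79 genes against the percent of 50-base windows of the transcript that have an exact copy at another gene (x axis); pink marks adjusted p under 0.05. Called genes lie at all levels of copying from 22.4% up, with Rpl5 lowest at -1.84.

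D4, with 1 library, has no replicate and no test. Its library was the highest of all 13 for 32 of the 79 genes, which held for 10.7% of all genes, among them Rpl8, Rpl4, Rplp1 and Rpl37. In contrast, its Rpl5 at 18.3 CPM lay within the WT range and its Rpl9 at 5.20 below it.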

How the data were processed

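RNA sequencing was analysed in 13 libraries. Per the labels' protocols, an RNeasy Micro kit gave the RNA and a SMARTer stranded total RNA kit the libraries. STAR 2.6.1d and GRCm38.p6 are named, per the submitters' processing notes. The authors deposited raw read counts per gene symbol; not given in the sources used here are the counting tool, its annotation and strand setting, and how multi-mapping reads were treated, so counts of genes with copies are uncertain.

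Members and lists were chosen with earlier results of these data known. Counts were scaled with TMM, filtered with filterByExpr (minimum count 10) and tested in R 4.3.3 by the robust quasi-likelihood method of edgeR 4.0.16, adjusted over all genes. The fit of arms used 11 units, adding up the recipients of each VQ line, while the contrast of D1 with D5 came from all 13 libraries, 1 mean per group. Named genes were, per comparison, the 5 highest and 5 lowest changes with mean log2 CPM of at least 3, the 3 most abundant per subunit, and genes fixed by role, paralogy or X linkage; others are marked where named, and a few genes that stay in every fit and count are not reported here by name. Levels are CPM per library on TMM-adjusted totals; the summed share is of raw counts. Transcript lengths are of the GENCODE principal transcript with the best support, the shortest where several tied, and copies are exact 50-base matches in transcripts of other genes. Deviations from the group means were correlated between WT and V libraries of the same number. Over all genes the values were 0.190, 0.158 and 0.125 (0.111, 0.0248 and -0.378 over the ribosomal protein genes). WT replicate 2 and D1 replicate 1, with unlike numbers, gave 0.133 over all genes. By the same-number values over all genes the numbers were taken to pair WT and V libraries. Alternatives were other scalings, filters, DESeq2 1.42.0, other units, a replicate block and each library or line left out. The block in WT and V alone with each pair left out, and for shares of the pool, was added after seeing the data. The tests were tested on simulated data.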

Additional observations from a re-analysis of the deposited data

Results flagged for a closer look

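Results differed between tumour models or lines by a test of the difference itself. Between VQ and tVk12653, 4 of 78 genes were called different (5.13%, beside 10.2% of all genes; 0 when either tVk12653 library was left out), among them Rps12 (log2 fold change 1.56) and Rpl10a (1.45). Between D1 and D5, 26 of 79 genes were called different, all lower in D1 (32.9%; of all genes 41.7% were called and 21.7% were lower). The named ones were Rpl5 (-1.84), Rpl28 (-1.34), Rps27 (-1.19), Rps12 (-1.19), Rps6 (-1.13), Rpl6 (-1.11), Rplp0 (-0.997), Rps27l (-0.95), Rpl10 (-0.89), Rpl36a (-0.63) and Rpsa (-0.48). Among alternatives, the Rpl36a call was lost without D1 replicate 1, without D1 replicate 2 or without D5 replicate 1. The Rpsa call was lost without D1 replicate 2, without D5 replicate 1 or without D5 replicate 2. The VQ and tVk12653 calls rest on 2 libraries of 1 line, and the D1 and D5 calls on 2 recipients of each line.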

How the results depend on the processing

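In V, VQ and tVk12653 against WT and in VQ against V, 0 ribosomal protein genes were called lower in any alternative run. In V against WT the genes called higher were 3 with DESeq2, 8 with 1 mean per group, 17 with the replicate block in all libraries and 29 with the replicate block in WT and V alone; leaving out a library or pair gave 0 to 25. In VQ against tVk12653 the genes called higher and lower were 9 and 4 with DESeq2, 23 and 9 with the replicate block, 22 and 9 with 1 mean per group, and 0 higher in a fit of the units compared alone. There 6 were lower with all libraries and 1 mean per arm, and 1 with relative log expression factors, scaling without the ribosomal protein genes, a minimum count of 30 or the 20 most abundant genes removed. Leaving out a library or line gave 0 to 8 higher and 0 to 1 lower. In D1 against D5 the genes called higher were 6 in a fit of the units compared alone, and 1 with a minimum count of 30 or without WT replicate 2 and D1 replicate 1 together; leaving out a library gave 0 to 1 higher and 15 to 27 lower. Shares of the pool changed for 3 genes (units compared alone), 6 (block in all libraries) and 4 (replicate block in WT and V alone) in V against WT, 26 (block) in VQ against WT, 32 (block) in tVk12653 against WT and 32 (units compared alone) in D1 against D5. Leaving out a library or line gave 6 to 27 in tVk12653 against WT and 8 to 24 in D1 against D5. The block changed no other count by over 1.5 times. D1 and D5 libraries of the same number did not deviate together.

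Single genes kept their direction and side of the threshold in 4210 comparisons with an alternative, lost the call in 201, gained it in 134 and changed sign in 46. For Rps24 in VQ against V the alternatives gave -0.0321 (relative log expression), -0.0247 (scaling without the ribosomal protein genes), -0.00906 (minimum count 30), -0.0188 (20 genes removed), -0.0256 (DESeq2), -0.0344 (units compared alone), -0.0456 (replicate block), -0.00304 (1 mean per arm), -0.0113 (1 mean per group) and -0.0209 (without WT replicate 2 and D1 replicate 1), and leaving out a library or line -0.116 to 0.0772. Rpl7a in V against WT gave 0.00547 with scaling without the ribosomal protein genes, 0.00497 with no filter and -0.202 to 0.158 with a library left out. In D1 against D5 Rps19 gave 0.00454 with a minimum count of 30, 0.0249 with the units compared alone and -0.0605 to 0.0309 with a library left out, and Rplp1 0.107 without WT replicate 2 and D1 replicate 1 and -0.221 to 0.103. Rpl11 in V against WT gave -0.0649 without those 2 libraries and -0.0714 to 0.322. With a library or line left out, Rpl5 ranged over -0.136 to 1.26 in VQ against V, -0.0276 to 1.36 in VQ against WT, -0.135 to 0.266 in V against WT and -0.308 to 0.0356 in tVk12653 against WT. Rpl26 ranged over -0.131 to 0.0193 and Rpl36al over -0.176 to 0.0330 in VQ against V, Rpl37 over -0.235 to 0.818 and Rpl39 over -0.481 to 0.624 in D1 against D5, Rps27 over -0.119 to 0.980 in VQ against tVk12653, and Rps6 over -0.376 to 0.0530 in V against WT. The cause of these shifts was not tested. Precision is limited by 1 library for D4, by 1 line for tVk12653 and by low counts for genes such as Rpl24, Rpl39 and Rps6.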
